A study of Mus musculus with 14 samples.

Results

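The inducible metalloproteinases are 8 of the 43472 genes listed in the data, chosen by symbol: the collagenases Mmp13, Mmp1a, Mmp1b and Mmp8, the stromelysins Mmp3 and Mmp10, the metalloelastase Mmp12 and gelatinase B, Mmp9. RNA was sequenced from primary fibroblasts of C57BL/6 mouse tail tips that had been grown as a monolayer and wounded with a scratch. Untreated wounded cells were compared with wounded cells given autologous micrograft (AMG), a soluble skin extract freed of cells and diluted 1 part in 10 with growth medium. Replicate 1 had 1 untreated and 1 AMG-treated library at each of 1, 5, 12 and 24 h, and replicates 2, 3 and 4 had both groups at 5 h, which gave 14 libraries. Nothing states that the replicates were separate cultures or animals, so the p-values below measure the spread between these libraries, which may be technical.

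Matrix metalloproteinases are zinc-dependent proteases, most of them secreted as inactive proenzymes, that cut proteins of the extracellular matrix. Collagenases open the fibrillar collagen triple helix, stromelysins cut a broad set of matrix proteins and activate other proenzymes, the metalloelastase cuts elastin, and gelatinases degrade denatured collagen and basement membrane collagen. Wounded skin is a known site of their induction, and fibroblasts make several of them in response to inflammatory cytokines and growth factors.

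Of these genes, 7 (Mmp13, Mmp12, Mmp1b, Mmp3, Mmp1a, Mmp10 and Mmp8, in that order) lie side by side on chromosome 9 between bases 7272514 and 7568485 of GRCm38 (mm10), a span of 296 kb. Mmp9 lies alone on chromosome 2, at bases 164940780 to 164955850. Mmp1b is read from the minus strand and shares 157 exonic bases with Mmp12, which is 10.8% of the exonic bases of Mmp1b and 2.17% of those of Mmp12. The strand setting of the read counting was not given in the sources used here, so reads in that overlap cannot be assigned to either gene. Mmp1a, which the annotation lists as a polymorphic pseudogene, and Mmp1b are close copies, so their separate values are uncertain too.

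The sequences just before the transcription starts are shown because 7 of the 8 genes are close neighbours, 4 of which rose together at 5 h, and because promoters of this family are known for a binding site of AP-1, the Fos and Jun transcription factors. RefSeq windows (GRCm38.p6) were found for 7 of the 8 genes, with 2 starts for Mmp12, and Mmp9 had no entry. Capitals mark the AP-1 motif TGANTCA, which was searched on both strands. Each line gives the 100 bases before a start, 5′ to 3′.
Mmp13 (chr9:7272414-7272513, plus strand): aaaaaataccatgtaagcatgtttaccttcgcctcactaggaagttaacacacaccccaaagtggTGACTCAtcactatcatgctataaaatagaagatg
Mmp1a (chr9:7464041-7464140, plus strand): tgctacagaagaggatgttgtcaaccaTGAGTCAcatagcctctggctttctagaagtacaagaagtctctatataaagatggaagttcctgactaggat
Mmp1b (chr9:7388027-7388126, minus strand): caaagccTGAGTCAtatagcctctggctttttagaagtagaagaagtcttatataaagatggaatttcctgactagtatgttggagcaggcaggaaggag
Mmp8 (chr9:7558329-7558428, plus strand): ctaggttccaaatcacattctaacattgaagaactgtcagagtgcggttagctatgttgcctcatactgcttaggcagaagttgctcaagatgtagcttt
Mmp3 (chr9:7445722-7445821, plus strand): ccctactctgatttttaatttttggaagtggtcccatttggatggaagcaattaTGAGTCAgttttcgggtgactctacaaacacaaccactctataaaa
Mmp10 (chr9:7502242-7502341, plus strand): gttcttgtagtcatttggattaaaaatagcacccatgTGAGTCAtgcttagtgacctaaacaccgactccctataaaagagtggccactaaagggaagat
Mmp12, upstream start (chr9:7344297-7344396, plus strand): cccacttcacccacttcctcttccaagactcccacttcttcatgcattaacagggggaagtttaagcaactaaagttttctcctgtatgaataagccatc
Mmp12, downstream start (chr9:7347274-7347373, plus strand): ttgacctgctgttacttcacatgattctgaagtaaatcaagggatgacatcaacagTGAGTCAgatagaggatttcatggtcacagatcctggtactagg

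The motif was found in 6 of the 7 genes, always within these 100 bases. Its first base lay 35 bases before the start in Mmp13, 44 in Mmp12, 46 in Mmp3, 63 in Mmp10, 73 in Mmp1a and 93 in Mmp1b. It was TGACTCA in Mmp13 and TGAGTCA in the other 5 genes. Over all 32851 RefSeq windows of the same 300 bases, from 250 before to 50 after a start, 7.81% held the motif, and 2.73% held it in the last 100 bases before the start. Neither the Mmp8 window nor the upstream Mmp12 window held these letters. The letters TATAAA, searched on both strands, were in a window of each of the 7 genes, against 13.6% of all windows. They lay before the start in the direction of the gene in 5 of them, with the first base 7 bases before the start in Mmp3, 16 in Mmp13, 28 in Mmp1a, 29 in Mmp10 and 49 in Mmp1b. In Mmp8 they were in reverse and ran across the start, and in Mmp12 they began just past the downstream start. The ETS factor motif AGGAAG was present in 6 of the 7 genes, all but Mmp10, against 35.4% of all windows. The NF-kB consensus was found in none of the 8 windows, against 4.51% of all windows. No motif overlapped another in these windows. A match is a description of letters, not of binding.

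Between 12545537 and 34696529 reads per library were assigned to a gene. All 10 fibroblast markers had reads in every library, and their summed normalised count was 485208 to 675537 in untreated and 412102 to 533552 in AMG-treated replicates 2 to 4. Of 8 neutrophil markers, 5 or 6 had no read in the untreated and 3 to 5 in the AMG-treated libraries of these replicates, and Elane had no read in any of the 14 libraries. Macrophage and leukocyte markers summed to 249 to 1569 untreated and 529 to 1899 with AMG. Of the keratinocyte markers, Krt1, Krt5 and Krt14 had no read in replicates 2 to 4, and Krt10 averaged 29.1 untreated and 39.0 with AMG. Trp63 averaged 26.2 untreated and 2.45 with AMG, a log2 change of -3.07 that did not pass (adjusted p = 0.129 with limma) and passed with the replicate number as a block (adjusted p = 0.00377 with limma). In bulk RNA, fewer cells of a type and less RNA per cell cannot be told apart.

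The first comparison asked whether AMG changed the members by 5 h. Levels are normalised counts, meaning reads divided by the size factor of the library, and changes are differences of log2(normalised count + 1), so that those of low genes are understated. Of the 8 members, 7 had a mean normalised count of at least 10 over replicates 2 to 4 and were tested, and Mmp8 was not. Mmp1a, Mmp1b and Mmp12 reached this mean only through their treated libraries, with untreated means of 0.367, 3.83 and 6.28. The filter thus favoured a rise for these genes. Mmp13, Mmp3, Mmp10 and Mmp9 exceeded it in the untreated group as well. All 7 tested members were higher with AMG, and 5 passed the test, Mmp13, Mmp1b, Mmp3, Mmp10 and Mmp9 (limma, adjusted p under 0.05 and a log2 change above 1). The background was 0.855% of 13096 genes called higher and 0.244% called lower. The median change of the 7 tested members, with those that met the filter only through AMG included, was 4.32 on the log2 scale. It was -0.02 over all genes tested. In each of the 8 members all 3 treated values lay above all 3 untreated values, which held for 15.1% of the genes tested.

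Mmp13, the principal collagenase of rodents, was the highest collagenase before treatment. Its normalised counts in replicates 2, 3 and 4 were 3241, 2910 and 5783 untreated and 20859, 11882 and 24182 with AMG. The lowest treated library stood 2.05-fold above the highest untreated one. The mean rose from 3978 ± 1572 to 18974 ± 6363 (SD, n = 3), a log2 change of 2.26 ± 0.35 (SE, adjusted p = 0.0414 with limma). This was the smallest change of the 7 tested members, and its 3 replicate changes, 2.69, 2.03 and 2.06, were close to each other.

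Mmp1a and Mmp1b, the mouse counterparts of the human interstitial collagenase gene, started near the limit of detection. Mmp1b measured 2.20, 2.78 and 6.49 untreated and 98.0, 50.8 and 140.1 with AMG. Its groups stood far apart, and it rose by a log2 change of 4.32 ± 0.56 (adjusted p = 0.0240 with limma). For Mmp1a, 1, 0 and 0 reads were counted untreated and 51, 5 and 56 reads with AMG. Treated replicate 3 was far below the other treated libraries. Over the 3 libraries of each group, the ratio was 135-fold with a 95% counting interval of 23.7 to 5366. The log2 change of Mmp1a was 4.44 ± 1.13 and did not pass (adjusted p = 0.104 with limma). With the replicate number as a block it passed (adjusted p = 0.00301 with limma), and without AMG-treated replicate 3 it passed as well, with a log2 change of 5.67 (adjusted p = 0.0125 with limma).

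Mmp8, the collagenase known from neutrophils, had no read in any of the 3 untreated libraries and 2, 6 and 2 reads with AMG. Against a floor of 3 reads over the untreated group, its treated level was 4.01-fold higher (lower 95% counting limit of the ratio 2.70). A floor of 3 reads in 1 library corresponds to a normalised count of 1.62 to 5.22, so Mmp8 was near or below the limit of detection, with at most 6 reads in a library. Among neutrophil markers, S100a8 averaged 6.75 untreated and 20.5 with AMG, a log2 change of 1.48 (adjusted p = 0.412 with limma). The part of such cells in the Mmp8 reads was not tested.

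**Figure D1:**
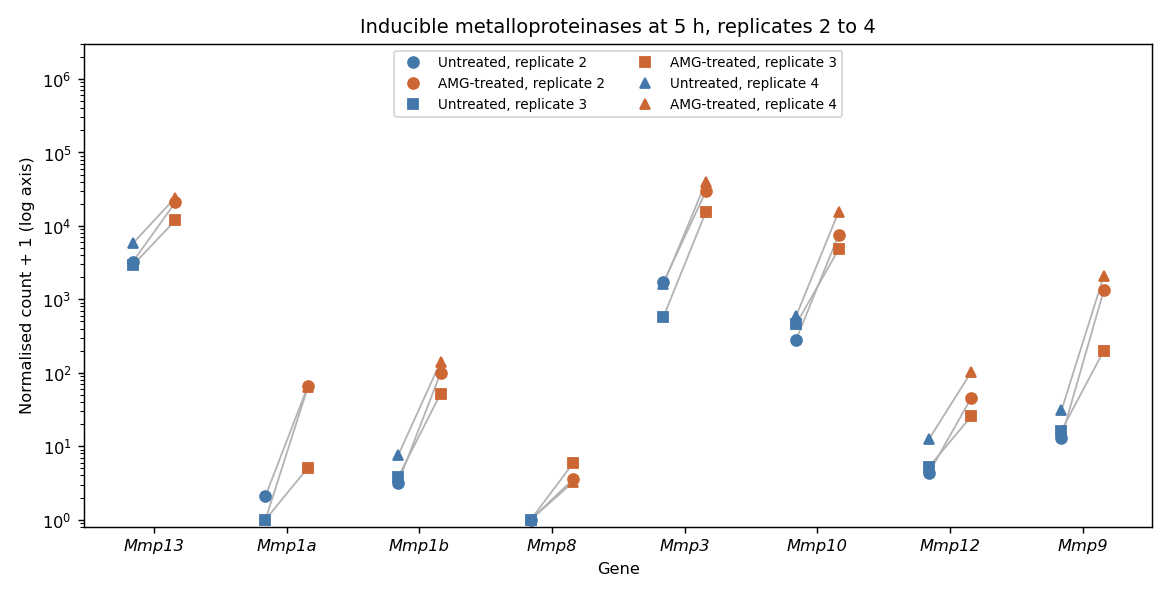
Normalised count + 1 on a log axis for each of the 8 genes in replicates 2, 3 and 4 at 5 h. Blue points are untreated and orange points AMG-treated libraries, marker shapes give the replicate, and grey lines join libraries of the same number. All 3 treated points lie above all 3 untreated points for each gene, and treated replicate 3 is the lowest treated point for every gene except Mmp8.

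Both stromelysins, Mmp3 and Mmp10, passed the test at 5 h. Mmp3 measured 1703, 576 and 1611 untreated and 29623, 15542 and 39410 with AMG. The lowest treated library was 9.13-fold above the highest untreated one. Mmp3 rose from a mean of 1297 ± 625 to 28192 ± 11998 (SD, n = 3), a log2 change of 4.49 ± 0.50 (adjusted p = 0.0190 with limma), and its 3 replicate changes ran from 4.12 to 4.75. Mmp10, a second stromelysin with a similar range of substrates, measured 282, 457 and 590 untreated and 7479, 4775 and 15512 with AMG. Its groups were 8.09-fold apart at their nearest values. It rose by a log2 change of 4.27 ± 0.46 (adjusted p = 0.0190 with limma).

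Mmp12, the metalloelastase best known from macrophages, was low in all libraries. It measured 3.30, 4.18 and 11.4 untreated and 44.5, 24.6 and 101.7 with AMG. The groups did not overlap, the nearest values being 2.17-fold apart, but the log2 change of 2.92 ± 0.68 did not pass (adjusted p = 0.0888 with limma). It passed with the replicate block (adjusted p = 0.00105 with limma) and without AMG-treated replicate 3 (log2 change 3.39, adjusted p = 0.0266 with limma). Beside it, none of the 7 tested macrophage and leukocyte markers passed in limma, with 1 at an unadjusted p under 0.05, 0 passing in edgeR and 1 in DESeq2. With the replicate block 1 of them rose, Cd14 (log2 change 1.93), against 4.05% of all genes tested. The part of macrophages in the Mmp12 values was not tested.

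Gelatinase B, Mmp9, had the largest fitted change of the 7 tested members at 5 h on the log2(value + 1) scale. The change of Mmp1a was larger with a pseudocount of 0.1, at 6.82 against 5.54 for Mmp9, and in edgeR, at 6.71 against 5.91, and it was also the larger of the pair in DESeq2. It measured 12.1, 15.3 and 29.7 untreated and 1340, 200.0 and 2102 with AMG. Treated replicate 3 was far below the other treated libraries and 6.72-fold above the highest untreated library. The mean rose from 19.1 ± 9.40 to 1214 ± 957 (SD, n = 3), a log2 change of 5.47 ± 0.86 (adjusted p = 0.0414 with limma), which placed Mmp9 at rank 12 of 13096 genes by change. Its replicate changes were 6.68, 3.62 and 6.10.

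In limma without the replicate block, which leaves the pairing of same-numbered libraries out, the number of members that passed depended on single libraries. It was 0 of 7 without untreated replicate 2, without untreated replicate 4, without AMG-treated replicate 2 or without AMG-treated replicate 4. Over all genes, these fits called only 1 to 10 higher. All 7 members kept an unadjusted p under 0.05 with limma in each of these fits. So did 301 to 418 genes that were higher by more than 1 on the log2 scale. The number of members was 2, Mmp3 and Mmp10, without untreated replicate 3, where 41 genes were called higher. It was 7 without AMG-treated replicate 3, where 447 genes were. With the replicate number as a block, 7 of 7 passed, against a background of 4.05% of genes called higher and 4.28% called lower. On the recovered reads, edgeR called 4 of the 7, without Mmp13, and DESeq2 called 7, against 97 and 336 genes called higher.

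Per kilobase of exon, levels can be set beside each other between genes. Untreated replicates 2 to 4 held 1488 ± 588 normalised counts per kb of Mmp13, 720 ± 347 of Mmp3 and 257 ± 89.9 of Mmp10 (SD, n = 3). Mmp13 stood above Mmp3 without overlap, whereas the ranges of Mmp3 and Mmp10 overlapped. Mmp9 followed at 5.38 ± 2.66, Mmp1b at 2.64 ± 1.61 and Mmp12 at 0.868 ± 0.611, and neighbours in this order overlapped. With AMG the order changed: Mmp3 led at 15653 ± 6662, ahead of Mmp13 at 7099 ± 2381 and Mmp10 at 5375 ± 3243, though the ranges of each neighbouring pair overlapped. Mmp9 came next at 343 ± 270, well below Mmp10 and overlapping Mmp1b at 66.4 ± 30.8. Mmp12 is given low values per kb by its long annotated exon set of 7237 bases.

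Within libraries the change in make-up was clear. Mmp3 made up 40.6%, 19.0% and 26.2% of the per-kilobase total of the 8 genes in untreated replicates 2, 3 and 4, and 56.6%, 54.1% and 53.8% with AMG. Mmp13 made up 52.1%, 64.8% and 63.4% untreated and 26.8%, 27.9% and 22.2% with AMG. Replicate 1 did not share the untreated pattern. Its untreated library at 5 h held 76.0% Mmp3 and 9.88% Mmp13, and its treated library held 59.9% and 17.0%. The shift from Mmp13 to Mmp3 at 5 h was therefore seen in replicates 2 to 4 and had the other sign in replicate 1.

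**Figure D2:**
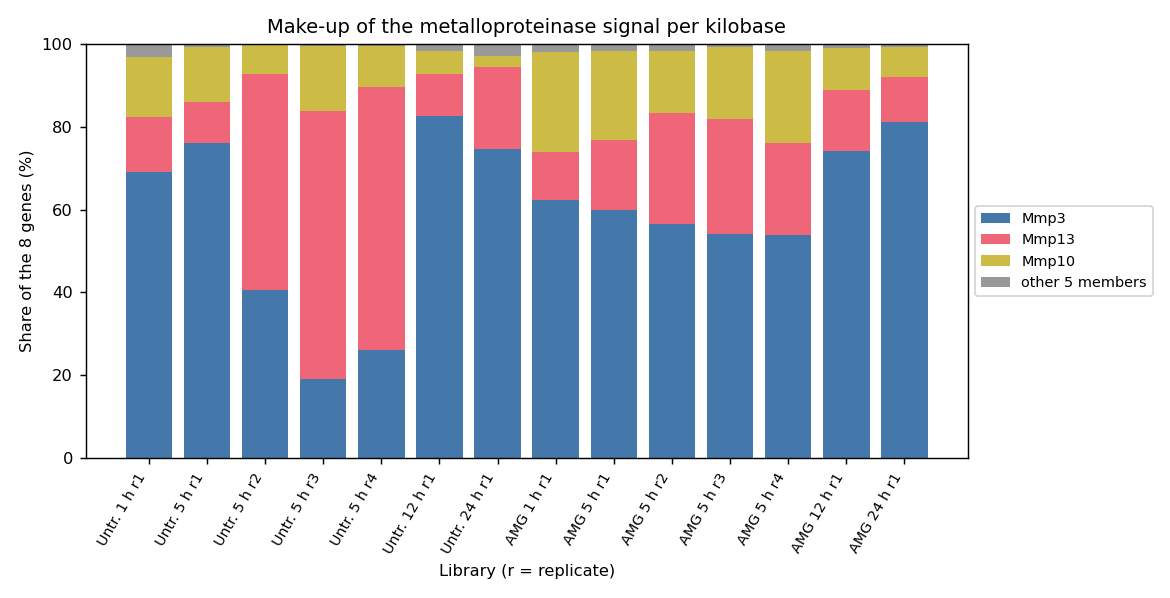
Share of each gene in the summed normalised counts per kilobase of the 8 genes, in percent, for each of the 14 libraries (r = replicate). Mmp13 is the largest part in untreated replicates 2 to 4, at 52.1% to 64.8%, and Mmp3 is the largest part in all other libraries.

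The chromosome 9 cluster was compared with Mmp9 by the difference between the change of each member and that of Mmp9 in the same libraries. Each of the 6 tested cluster members changed less than Mmp9 at 5 h on average. The difference was -3.21 ± 1.40 for Mmp13 and -2.54 ± 1.07 for Mmp12 on the log2 scale (mean ± SD over 3 replicates), and these were negative in every replicate. Both had the smallest p that the exact permutation test of 3 against 3 libraries allows, 0.1 (two-sided, 0.3 after Benjamini-Hochberg adjustment over 6 pairs). The differences were -1.19 ± 0.87 for Mmp10, -1.14 ± 1.13 for Mmp1b, -1.02 ± 0.84 for Mmp1a and -0.97 ± 1.90 for Mmp3, with exact permutation p from 0.2 to 0.4. In replicate 3, where Mmp9 changed least, the difference was 1.13 for Mmp3 and 0.15 for Mmp1b, the other sign. The design cannot pass 0.05, so the cluster and Mmp9 were not shown to differ at 5 h. The value for Mmp1a, which rests on 1 untreated read, turned to 1.28 with a pseudocount of 0.1.

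**Figure D3:**
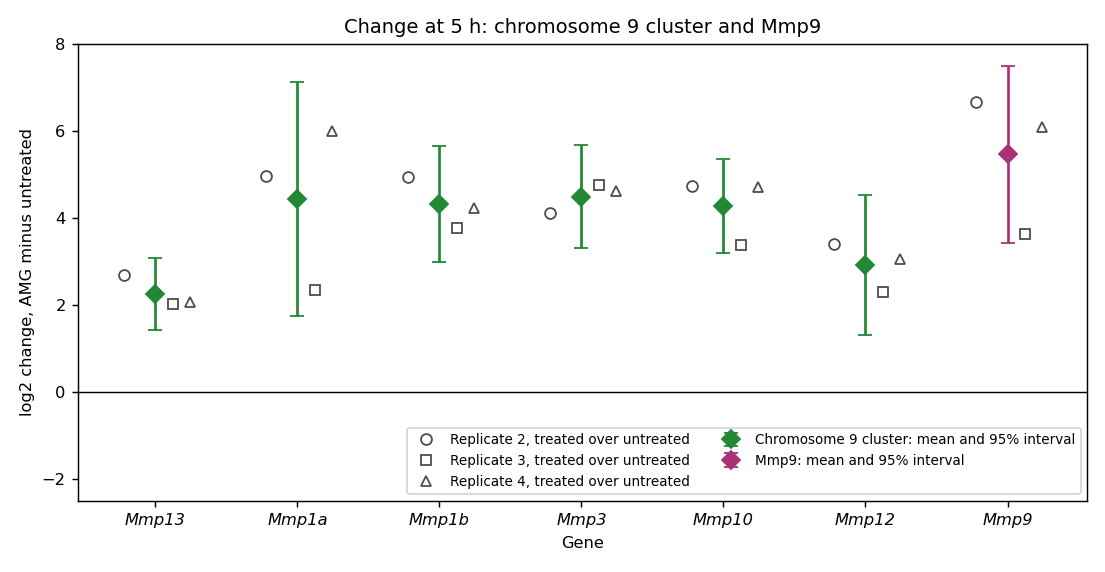
The log2 change at 5 h, AMG minus untreated, for the 7 tested genes. Diamonds are limma means with 95% intervals, green for the chromosome 9 cluster and purple for Mmp9, and open symbols are the changes of replicates 2, 3 and 4. The mean is 2.26 for Mmp13 and 5.47 for Mmp9, whose replicate 3, at 3.62, lies within the range of the cluster.

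The genes on either side of the cluster and of Mmp9 were compared in the same way. Dcun1d5, next to Mmp13, had a log2 change of 0.81 (adjusted p = 0.0898 with limma), and Dync2h1, beyond it, one of -0.46 (adjusted p = 0.336 with limma). On the other side, Mmp27 and Mmp20, the metalloproteinase genes next to Mmp8, had 0 reads in all 6 libraries, and Mmp7 had 10 reads in total. Tmem123 followed with a log2 change of -0.29 (adjusted p = 0.274 with limma). Of 8 tested neighbours of the cluster, 1 rose, Birc3, which encodes an inhibitor of apoptosis (log2 change 1.62, adjusted p = 0.0402 with limma). Of 15 tested neighbours of Mmp9, 1 rose, Cd40, which encodes a receptor of the tumour necrosis factor receptor family, with a log2 change of 4.09 (adjusted p = 0.0190 with limma). Zfp335 and Slc12a5, directly beside Mmp9, had log2 changes of -0.27 and -0.09, neither of which passed. Over all genes tested, 0.855% were called higher in limma. With the replicate block 2 of the 8 neighbours of the cluster passed, Birc3 and Trpc6, against 4.05% of all genes called higher. The median change was -0.03 over the cluster's neighbours and 0.04 over those of Mmp9.

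**Figure D4:**
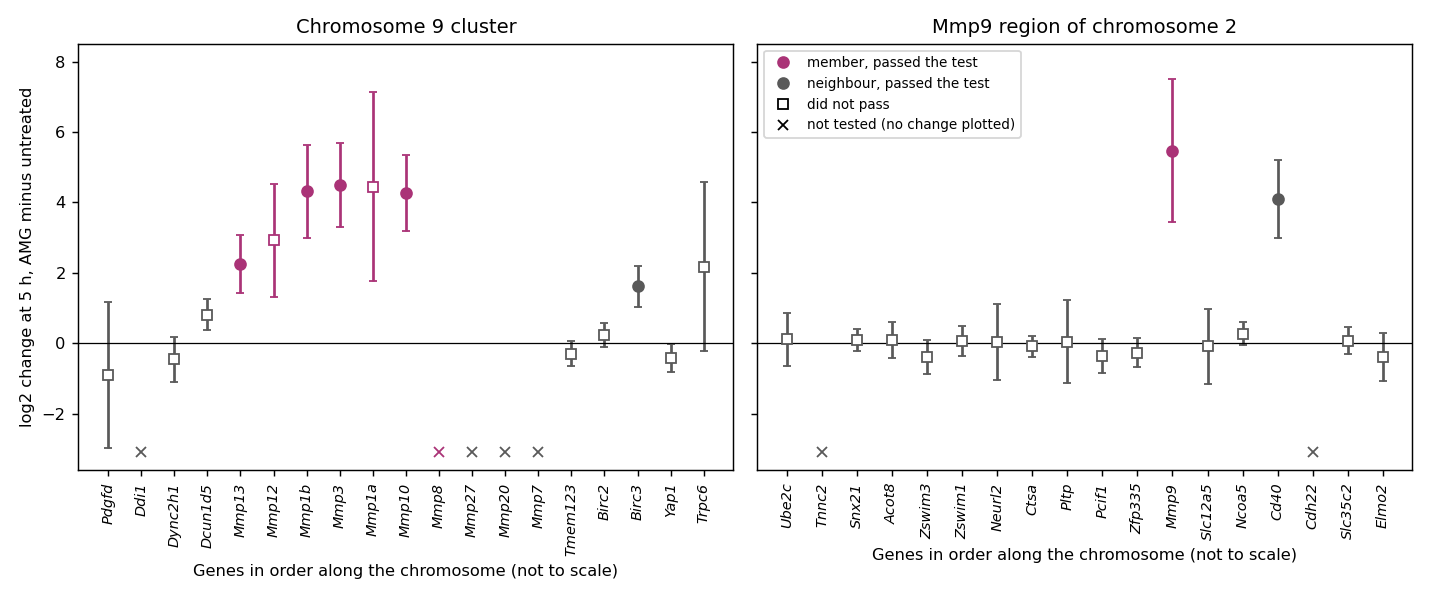
The log2 change at 5 h with 95% limma intervals for genes in their order along chromosome 9 (left) and chromosome 2 (right), not to scale. Purple marks the 8 metalloproteinases and grey their neighbours, filled circles passed the test, open squares did not, and crosses at the bottom were not tested. Of the neighbours shown, Birc3 and Cd40 passed.

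The time course came from replicate 1, with 1 library per group and time and no replicate check. Its intervals cover counting error only, since reads carry no molecular identifiers. At 5, 12 and 24 h, 7 of the 7 members with a mean of at least 10 were more than 2-fold higher with AMG on the log2(value + 1) scale, against a background of 13.3%, 5.93% and 6.05% of 13498 genes. At 1 h this held for 5 of 7, all but Mmp9 and Mmp12, against 11.3% of genes. Mmp1a and Mmp1b reached the mean of 10 only through their treated libraries, with untreated values of at most 8.20 and 9.67. The 5 genes that were above 2-fold at all 4 times were Mmp13, Mmp1a, Mmp1b, Mmp3 and Mmp10, against 0.956% of genes.

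Among the collagenases, Mmp13 measured 1162, 1260, 495 and 499 untreated and 4770, 15585, 42800 and 34312 with AMG at 1, 5, 12 and 24 h. The untreated level fell while the treated level rose to 12 h, so that the ratio went from 4.10-fold (95% counting interval 3.84 to 4.39) at 1 h to 86.4-fold (80.1 to 93.3) at 12 h. Mmp1b measured 9.67, 3.28, 2.93 and 3.06 untreated and 104.3, 183.3, 386.0 and 226.8 with AMG. The untreated values rest on 2 to 11 reads, and the ratio at 12 h was 132-fold with a counting interval of 51.1 to 486. Mmp1a had 3, 5, 3 and 0 reads untreated and 36, 194, 185 and 176 reads with AMG. At 24 h its treated level was 69.0-fold higher, against a floor of 3 reads in the untreated library (lower 95% counting limit of the ratio 55.5). Mmp8 had no read in 7 of the 8 libraries and 6 reads with AMG at 24 h. This was 2.35-fold above the same floor (lower 95% counting limit of the ratio 1.38). In that library the neutrophil marker S100a8 was at 162, against 1.53 untreated, and Camp at 110.7, against 8.42. Ly6g was at 24.3 there, against 0.766 untreated, and S100a9 was at 2.70, against 0. The remaining 4 of the 8 neutrophil markers, Mpo, Elane, Ltf and Csf3r, had no read in that library.

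The stromelysins were higher with AMG at all 4 times. Mmp3 measured 4030, 6529, 2688 and 1278 untreated and 17282, 37018, 144047 and 171791 with AMG. The treated level was still higher at 24 h than at 12 h while the untreated level had fallen 3.15-fold from 1 h to 24 h. With AMG at 24 h, Mmp3 had more reads than any other gene, 0.939% of all reads (95% Wilson interval 0.935% to 0.943%), and it ranked 2 at 12 h. The ratio reached 134-fold (counting interval 128 to 141) at 24 h. Mmp10 measured 804, 1095, 168 and 42.9 untreated and 6402, 12627, 18594 and 14792 with AMG. Its untreated level fell 18.8-fold from 1 h to 24 h, more than that of any other member with reads at 24 h. The ratio of Mmp10 was 345-fold at 24 h (counting interval 265 to 457), the largest ratio of the members with untreated reads at any time.

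Mmp12 measured 27.2, 21.3, 13.2 and 7.66 untreated and 46.9, 109.9, 200.1 and 235.8 with AMG. At 1 h the ratio was 1.72-fold with a counting interval of 0.989 to 2.98, so no difference was detectable at this depth, and at 24 h it was 30.8-fold (16.5 to 65.0). Mmp9 measured 326, 103, 95.1 and 90.4 untreated and 619, 1410, 2661 and 1868 with AMG. It was already present in wounded untreated cells at 1 h, at 3.61 times its 24 h level, and the ratio at 1 h was 1.90-fold (1.64 to 2.20). The ratio of Mmp9 was largest at 12 h, 28.0-fold (23.5 to 33.6), and was 20.7-fold at 24 h.

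With AMG, each of the 8 members was highest at 12 or 24 h, and untreated, each of the 7 members with reads was lower at 24 h than at 1 h. The later ratios combined a rise with AMG and a fall without it. The 8 genes together took 0.0304%, 0.0398%, 0.0193% and 0.0109% of all reads untreated and 0.121%, 0.316%, 1.14% and 1.22% with AMG at 1, 5, 12 and 24 h. In replicates 2 to 4 the share was 0.0227% to 0.0428% untreated and 0.181% to 0.414% with AMG. Replicate 1 at 5 h lay within both of these ranges. The ratios of replicate 1 moved with gene length: removing the trend over exon length raised the log2 ratio at 5 h from 2.50 to 3.10 for Mmp3 and from 3.53 to 4.15 for Mmp10. At 1 h it lowered the ratio from 2.10 to 1.56 for Mmp3, from 2.99 to 2.42 for Mmp10 and from 3.30 to 2.60 for Mmp1b, and at 24 h from 7.07 to 6.90 for Mmp3.

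**Figure D5:**
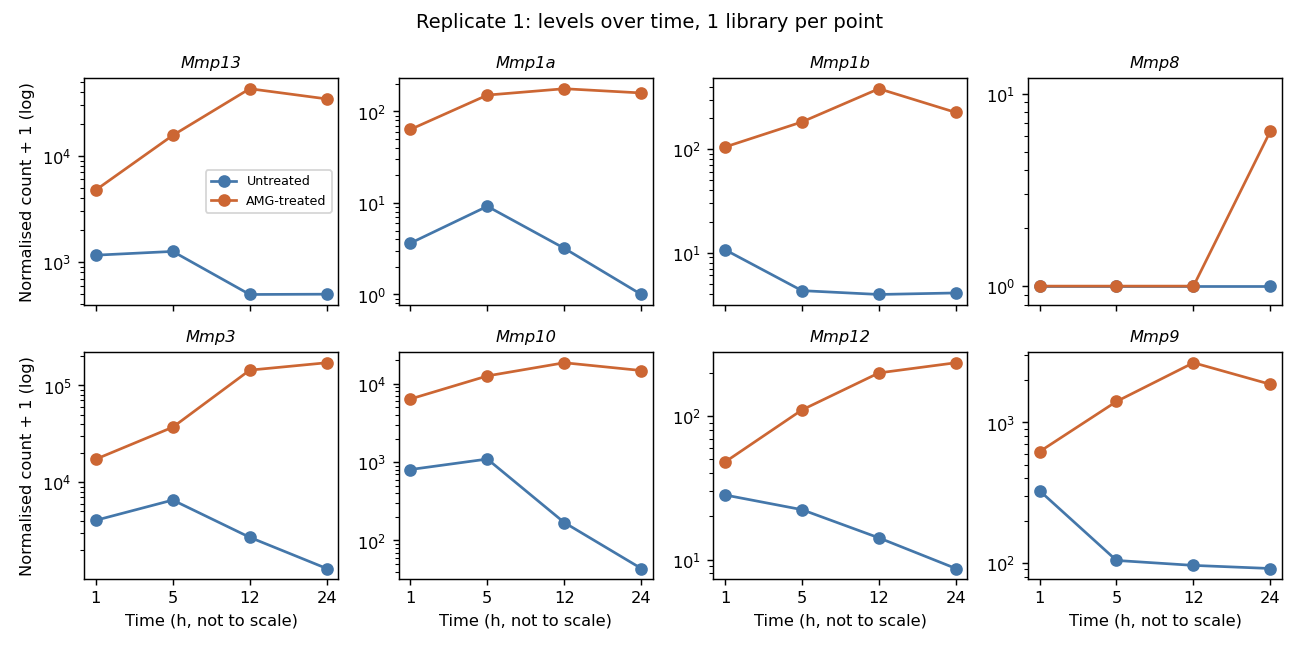
Normalised count + 1 on a log axis for each of the 8 genes in replicate 1 at 1, 5, 12 and 24 h (time axis not to scale), with 1 library per point, untreated in blue and AMG-treated in orange. The treated line is higher at 12 h than at 1 h for the 7 genes other than Mmp8, and at 1 h the lines lie closest for Mmp12 and Mmp9 among the genes with reads.

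In replicate 1 the cluster was set against Mmp9 at each time. At 1 h the log2 ratios exceeded that of Mmp9 by 3.21 for Mmp1a, 2.38 for Mmp1b, 2.07 for Mmp10, 1.18 for Mmp3 and 1.11 for Mmp13. At 5 h Mmp1b and Mmp1a were 1.67 and 0.28 above Mmp9, and the differences of Mmp13, Mmp10 and Mmp3 were -0.13, -0.23 and -1.26. At 12 h the ratios exceeded that of Mmp9 by 1.99 for Mmp10, 1.83 for Mmp1b, 1.64 for Mmp13, 1.00 for Mmp1a and 0.95 for Mmp3. At 24 h they did so by 4.04 for Mmp10, 2.96 for Mmp1a, 2.72 for Mmp3, 1.75 for Mmp13 and 1.45 for Mmp1b. On the log2(value + 1) scale these 5 genes were thus above Mmp9 at 1, 12 and 24 h, and Mmp1a and Mmp1b at all 4 times. With a pseudocount of 10, Mmp1a fell below Mmp9 at 5, 12 and 24 h, and Mmp1b did so at 24 h. Their log2 ratios at 24 h were then 4.07 and 4.18, against 4.23 for Mmp9. Before length correction, Mmp12 stayed within 1.45 of Mmp9 at all 4 times. With the length trend removed, the log2 ratios at 5 h were 3.88 for Mmp9, 3.94 for Mmp13, 4.15 for Mmp10 and 3.10 for Mmp3. Mmp13 and Mmp10 thus moved above Mmp9, and Mmp3 stayed below it. The corrected log2 ratio of Mmp12 was 2.02 at 5 h, and at 1 h it was 1.09 against 0.89 for Mmp9. These are single libraries, and the differences were not tested.

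Likeness was measured as Pearson's r of log2(normalised count + 1) over all 14 libraries, each table centred on its own mean, for the 12843 genes whose mean reached 10 in each table. The libraries differed in treatment, time and depth, which can move many genes together, so r is a description. The 5 genes most like Mmp3 were Ptges, a prostaglandin E synthase (r = 0.973), Mmp12 (0.965), Nos2, the inducible nitric oxide synthase (0.949), Nqo1, a quinone reductase (0.947), and Glrx, a glutaredoxin (0.946). The other cluster members Mmp1a, Mmp1b, Mmp13 and Mmp10 ranked 6, 7, 9 and 11, and Mmp9 ranked 24. The 5 genes most like Mmp9 were Acpp (0.974), Gpr84 (0.970), Egln3 (0.958), Cd40 (0.958) and Ptges (0.951). For Mmp9 the nearest member was Mmp12, at rank 10, followed by Mmp1b at 15 and Mmp3 at 30, and Mmp13 was the most distant, at rank 148 (r = 0.840).

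The other genes of the pathway were counted from lists chosen with earlier results of these data known. Of 10 tested other metalloproteinases, 0 passed in limma, with 2 at an unadjusted p under 0.05 and 0 passing in edgeR and 1 in DESeq2, and their median log2 change was -0.43. With the replicate block Mmp24 rose (log2 change 1.63) and Mmp11 fell by 1.45 on the log2 scale. Mmp2, the constitutive gelatinase A, averaged 7195 untreated and 5852 with AMG, and Mmp14, a membrane-bound activator of Mmp2, averaged 12399 and 12223. Of 4 tested inhibitors, 0 passed in limma, with 2 at an unadjusted p under 0.05 and 0 passing in edgeR and 1 in DESeq2. Timp1, the inducible inhibitor, had a log2 change of 1.22 ± 0.37 (adjusted p = 0.128 with limma, and 0.000146 with the replicate block, where it passed).

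The 4 tested genes of proenzyme activation were the protease genes Plau, Plat and Furin and the urokinase receptor gene Plaur. Of these, 1 rose, Plau, the urokinase plasminogen activator, from 3601 ± 769 to 26001 ± 13770 (log2 change 2.73, adjusted p = 0.0402 with limma). Of 12 tested ligands and receptors that are known inducers, 4 rose: Il1a with a log2 change of 6.00, Il6 with 6.72, Lif with 6.69 and Ereg with 3.13. The receptors Il1r1, Tnfrsf1a and Egfr had log2 changes of 0.57, -0.15 and 0.02, and none passed. Of 17 transcription factors known from metalloproteinase promoters, 5 rose: Fosl1, which encodes the AP-1 subunit Fra-1, with a log2 change of 1.37, Ets1 with 1.42, and the NF-kB family genes Nfkb1, Nfkb2 and Relb with 1.82, 1.50 and 2.09. Fos had a log2 change of -1.33 at 5 h, which did not pass (adjusted p = 0.151 with limma). Over all genes tested, 0.855% were called higher in limma. In edgeR 1 of the activation genes, 3 of the ligands and receptors and 5 of the transcription factors passed. In DESeq2 the numbers were 1, 7 and 7. With the replicate block, 2 of the activation genes (Plau and Plaur), 7 of the ligands and receptors and 7 of the transcription factors rose. With it 1 transcription factor, Fos, fell. The background with the block was 4.05% of genes called higher and 4.28% called lower.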

How the data were processed

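RNA of 14 libraries from wounded tail fibroblasts was analysed, with groups and replicate numbers taken from the sample labels. The authors aligned single-end reads to mm10 with TopHat2 2.0.13, counted unique alignments per gene with HTSeq 0.5.3p3 and divided the counts by DESeq size factors, separately for replicate 1 (8 libraries) and replicates 2 to 4 (6 libraries). The deposited values are therefore a normalised signal per gene, and levels were not compared across the tables. The annotation release and strand setting were not given in the sources used here. Dividing by the step of each library gave a whole read number, to within 0.1, for 100% of values.

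The 3 treated and 3 untreated libraries of replicates 2 to 4 were compared on log2(value + 1) with limma 3.58.1 in R 4.3.3 (trend), for 13096 genes with a mean of at least 10, with Benjamini-Hochberg adjustment over all of them. A gene passed at an adjusted p under 0.05 and a log2 change beyond 1. The scripts were tested on simulated data. Same-numbered libraries deviated together (r = 0.651, 0.765 and 0.697, other pairs -0.588 to 0.12), so the numbers pair the libraries. No label states what lies behind a number. Replicate 1 was described without a test, with conditional binomial 95% counting intervals. On these recovered reads, DESeq2 1.42.0 and edgeR 4.0.16 served as alternatives, beside other pseudocounts, filters and scalings, and each library left out. Gene positions and exon lengths came from GENCODE. The members and all lists were chosen with earlier results of these data known. Every member was named, and for likeness the 5 highest genes for Mmp3 and for Mmp9.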

Additional observations from a re-analysis of the deposited data

Results flagged for a closer look

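In each group of 4 libraries at 5 h, the level of each member in RPM (its reads scaled to the library total, which removes the separate scaling) and the depth were checked for 1 library standing apart from the remaining 3. This was 18 searches, but Mmp8 had no read in the untreated group and could not be marked there. Chance alone marks about 1 in 20 of the rest. Marked were 3. Mmp1a stood at 0.362 RPM in untreated replicate 1, against 0 to 0.0612 in the other untreated libraries, its gap taking 0.831 of the range, just above the critical value. Mmp1b stood at 0.346 RPM in untreated replicate 4, against 0.122 to 0.159 in the others, with a gap of 0.835 of the range. Both rest on 12 reads or fewer. Untreated replicate 4 was also the deepest library, with 34696529 reads assigned against 12545537 to 16331090 in the other 3. Without that library Mmp1b had a log2 change of 4.69, against 4.32 with it, and did not pass (adjusted p = 0.0866 with limma). No other member passed in that fit either, and only 9 of all genes were called higher. The cause of these values was not tested.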

How the results depend on the processing

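The tested members had a positive log2 change at 5 h in every setting that held them, and a mean of at least 50 held 5 of the 7, without Mmp1a and Mmp12. The count of members that passed was 5, and it was 3 in limma without the trend and 0 to 7 with 1 library left out. Genes called higher numbered 112, and 530 with the replicate block, 560 with edgeR and the block, 281 with edgeR on 4 replicates and the block, 336 with DESeq2, 56 without the trend and 1 to 447 with 1 library left out. Genes called lower numbered 32, and 560 with the replicate block, 542 with edgeR and the block, 139 with edgeR on 4 replicates and the block, 230 with DESeq2 and 0 to 511 with 1 library left out (limma). Where that count was 0, 279 to 348 genes were lower at an unadjusted p under 0.05 by more than 1 on the log2 scale. The block in limma changed the call of Mmp12 and Mmp1a and of no other member. In the comparison with Mmp9, the difference of Mmp1a turned from -1.02 to 1.28 with a pseudocount of 0.1, since its untreated group held 1 read, and the other 5 members kept their sign under each alternative tried. With the replicate block (sign flips over 3 replicates, smallest possible exact p 0.25) the p of the 6 pairs was 0.25 or 0.5. In replicate 1, all 28 log2 ratios of the 7 members stayed positive under the other pseudocounts, the upper quartile scaling and the length correction, and 26 or 27 of them stayed above 1. The depth limits Mmp8, Mmp1a and the untreated values of Mmp1b and Mmp12, which rest on few reads.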

Other observations

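The matrix proteins that metalloproteinases cut, and the inhibitors that hold them in check, were also measured. Of 14 matrix genes, 0 passed at 5 h in limma, with 2 at an unadjusted p under 0.05 and 0 passing in edgeR and in DESeq2. In replicates 2 to 4 all 14 had a negative log2 change, with a median of -0.50. With the replicate block 0 passed as well. Col1a1, Col1a2, Col3a1, Col4a1, Col4a2, Col5a1, Fn1 and Hspg2 then had an adjusted p under 0.05 with limma. Their log2 changes, from -0.63 to -0.31, did not reach the threshold, and the remaining matrix genes did not reach that p. In replicate 1 at 5 h, 12 of the 14 were higher with AMG, with log2 ratios up to 1.63 for Nid1, and Eln (-1.48) and Dcn (-0.22) were lower. In replicate 1 at 24 h, Eln, the gene of elastin, was at 127.9 untreated and 0 with AMG, whereas Dcn, the gene of the collagen-binding proteoglycan decorin, was at 789 and 4316. Timp3, an inhibitor bound to the matrix, was at 50031 untreated and 4876 with AMG at 24 h, a log2 ratio of -3.36, after 95530 and 97330 at 1 h. Timp1 was at 27206 untreated and 66515 with AMG at 1 h, at 61225 and 46127 at 5 h, a log2 ratio of -0.41 where replicates 2 to 4 had a log2 change of 1.22, and at 15196 and 20063 at 24 h. The ratios of replicate 1 come from 1 library per group and time and were not tested. They were not corrected for the trend with gene length described above.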
